A study of Mus musculus with 6 samples.

Results

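The genes described here are 40 components of the DNA replication machinery, chosen by gene symbol from a list that covers origin licensing, the replicative helicase, the polymerases, the sliding clamp, Okazaki fragment processing, single-strand DNA binding, deoxynucleotide synthesis, and the chromatin and repair genes Uhrf1 and Brca1. All 40 were found among the 17933 genes of the expression table. RNA was measured in whole kidneys of male C57BL/6 mice of wild-type genotype, 3 samples from the kidney stone group and 3 from the control group. In the stone group glyoxylic acid, a precursor of oxalate, was given intraperitoneally at 120 mg/kg daily over 12 days, which makes calcium oxalate crystals form in the kidney, and control mice got an equal volume of saline. The labels give an age of 6 to 8 weeks and a weight of 24 to 26 g. Whether each sample was a separate mouse is not written there, so the p-values reflect only the spread among these 6 samples, which could be technical. With 3 samples a group, a permutation of the labels for a single gene cannot go below p = 0.1, so the model fitted across all genes was used.

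DNA replication starts with licensing, in which the origin recognition complex, Cdc6 and Cdt1 load rings of the MCM helicase onto DNA in G1. In S phase Cdc45 and the GINS complex join the MCM ring to form the active helicase, primase and the polymerases copy the strands, and the PCNA clamp, loaded by replication factor C, holds the polymerases on DNA. Many of these genes are transcribed around the G1/S boundary under E2F transcription factors. Most tubule cells of the healthy adult kidney are quiescent, and surviving tubule cells re-enter the cell cycle after injury. In RNA of the whole organ the source cell of a transcript is not known, and more cells of a type cannot be told apart from more RNA per cell.

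Expression was given as FPKM, fragments normalised for gene length and for the sample's total, so levels may be compared between genes. FPKM sums were 609705 to 613885 in stone samples and 711768 to 758514 in control samples, and the transcript Kap held 1.18% to 2.26% of the sum in stone samples and 19.3% to 23.2% in control samples. Pearson's r across genes on log2(FPKM + 1) was 0.979 to 0.991 within groups and 0.931 to 0.950 between them. FPKM carry no counts, so no counting error can be given. Markers of every nephron segment looked at were present in both groups, with summed levels of 2111 to 2724 FPKM in stone and 3326 to 3802 FPKM in control kidneys for 6 proximal tubule genes, and of 1394 to 2208 FPKM in stone and 2096 to 2455 FPKM in control kidneys for 5 genes of the loop and distal tubule. Collecting duct markers summed to 289.8 to 471 FPKM in stone and 219.7 to 233 FPKM in control kidneys, and podocyte markers to 78.7 to 95.3 FPKM in stone and 44.9 to 64.0 FPKM in control kidneys.

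Most replication genes were higher in stone kidneys, but the machinery did not move as a unit. In 31 of the 40 genes every stone sample lay above every control sample, and in 0 genes every stone sample lay below. Over all 17587 genes above 0 in at least 1 sample, 41.3% were separated upward in this way. With median-of-ratios scaling, explained below, 27 genes were separated upward and 3 downward, namely Mcm10, Pole2 and Rfc2, against 25.3% and 24.6% of genes. The stone mean was at least 2 times the control mean in 16 of the 40 genes, against 20.8% of all genes above 0, and at least 3 times in 9. These 9 were Uhrf1, Cdc6, Brca1, Pole, Gins2, Rrm2, Mcm3, Mcm5 and Lig1, and the share of all genes at 3 times or more is not given. At the other end the stone mean was below the control mean in 3 genes, Mcm10, Pole2 and Rfc2.

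Stone and control kidneys were compared with limma on log2(FPKM + 1), with p-values adjusted over all genes tested (Benjamini-Hochberg) and a threshold of 0.05. With no filter on low values, 28 of the 40 genes were called higher and 0 lower, and 33.3% of all 17587 genes were called higher. When genes averaging under 1 FPKM were dropped, 36 of the 40 were tested, 28 were called higher and 0 lower, and 43.5% of all 12319 tested genes were called higher (49.8% had all stone values above all control values). Cdc6, Gins3, Pole and Brca1 fell under that limit, while Uhrf1 and Pola1 reached it only through the stone samples, so the unfiltered count is the one over every member. The counts of 28 hold different genes, since without the filter Rfc1, Rfc3 and Tyms were not called (limma, adjusted p = 0.0588, 0.0689 and 0.0704) and Cdc6, Pole and Brca1 were. The median log2 fold change was 0.66 over the 36 genes and 0.21 over all tested genes, so part of each value is shared with the typical gene. After scaling samples by the median of ratios, which moved the typical gene by -0.22, 23 of the 36 were called higher and 2 lower, against 22.5% and 26.2% of all tested genes. With that scaling and no filter 24 of the 40 were called higher and 2 lower, against 17.6% and 18.3% of all genes. The 2 lower genes were Mcm10 and Rfc2 in both. Quantile normalization gave 18 higher and 2 lower, against 22.3% of tested genes higher, and equal FPKM sums gave 33 higher and 0 lower, against 68.5%. In 18 genes the higher call was kept under all 17 alternative settings tried, namely Cdt1, the 6 helicase genes Mcm2 to Mcm7, Gins2, Prim1, Pold1, Pcna, Rfc4, Fen1, Lig1, Rrm1, Rrm2, Tk1 and Uhrf1. The share of all tested genes that kept a higher call under all 17 is not given, so this count has no background beside it. Every fold change below is given as deposited unless another scaling is named.

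**Figure D1:**
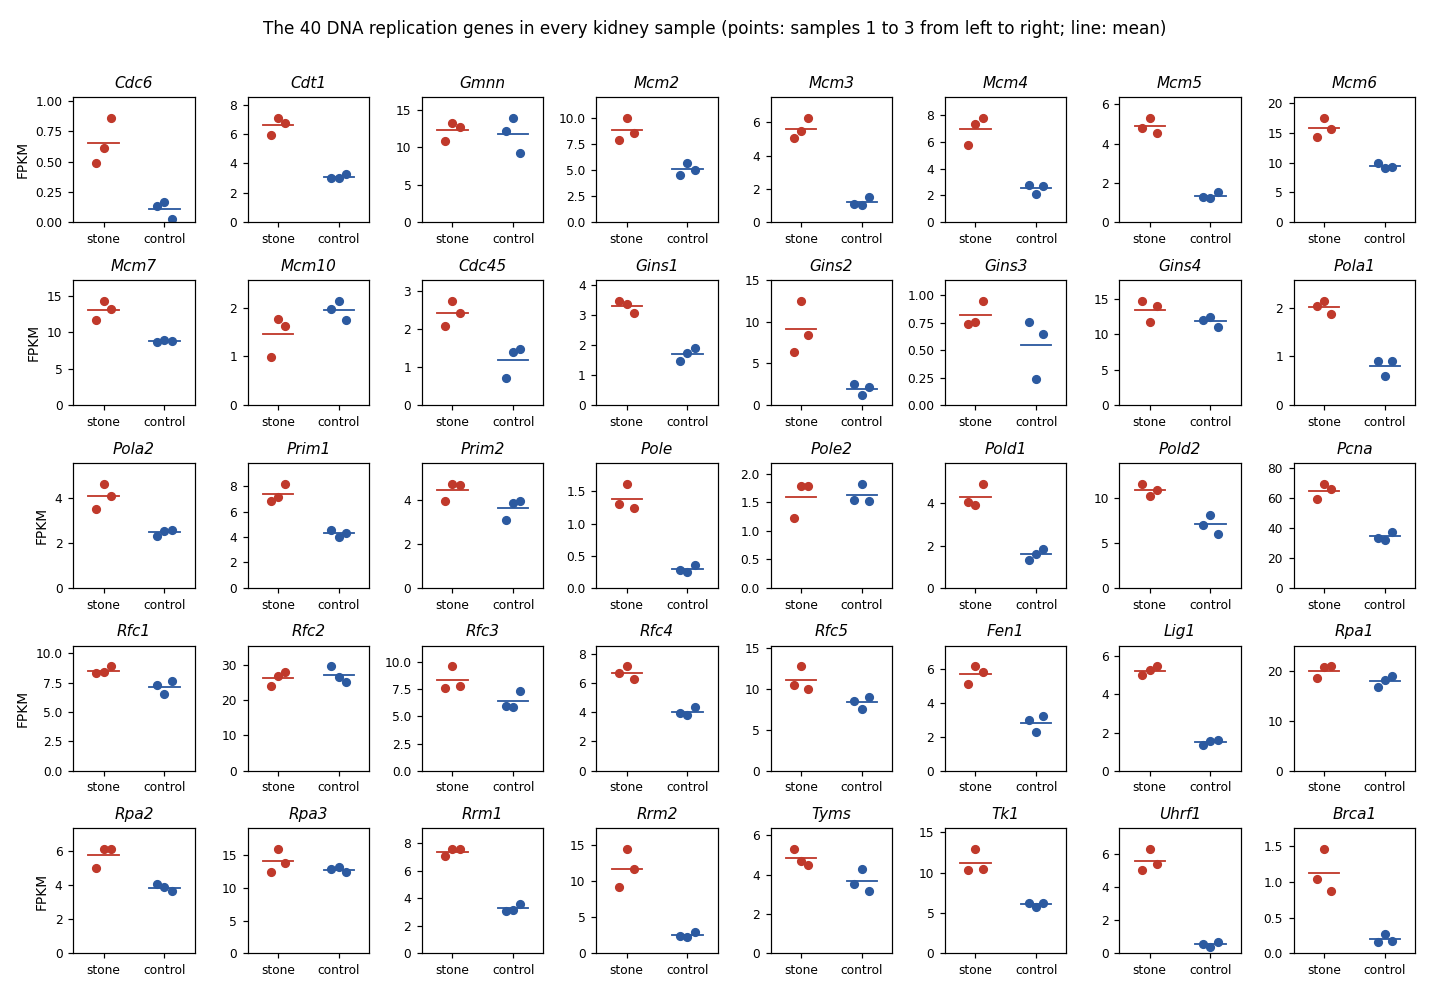
FPKM of each of the 40 replication genes in every sample, with 3 stone samples in red on the left and 3 control samples in blue on the right of each panel, each axis starting at 0 and horizontal lines for the group means. In 31 panels the red points all lie above the blue ones, while Gmnn, Mcm10, Gins3, Gins4, Prim2, Pole2, Rfc2, Rpa1 and Rpa3 overlap.

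Promoter sequences are shown because E2F sites are the textbook feature that this gene set shares, and because the sets of letters can be laid beside the fold changes. Windows from 250 bases before to 50 bases after the start of transcription were taken from RefSeq (GRCm38.p6) for 32 of the 40 genes, 38 windows in all. Mcm4, Pole, Gmnn, Gins4, Gins2, Gins1, Prim2 and Rfc2 were not matched. The E2F-type motif was searched on both strands as TTTCCCGC, TTTCGCGC, TTTGCCGC and TTTGGCGC, which can overlap each other on opposite strands, and the CCAAT box, bound by NF-Y, as CCAAT. The lines below give bases upstream of the start, 5′ to 3′ on the gene's strand, with matches to either motif on either strand in capitals. Mcm6 and Mcm5 carry upstream E2F-type matches, Gins3 carries a match but has overlapping groups, Rrm2, Uhrf1 and Pcna were called higher and have only CCAAT boxes in the bases shown, and Rpa3 has overlapping groups and CCAAT boxes only.
Mcm6, minus strand, chr1:128359706-128359830: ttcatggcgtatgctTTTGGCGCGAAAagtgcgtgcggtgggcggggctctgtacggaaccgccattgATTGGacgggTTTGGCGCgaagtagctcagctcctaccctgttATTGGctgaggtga
Mcm5, plus strand, chr8:75109344-75109464: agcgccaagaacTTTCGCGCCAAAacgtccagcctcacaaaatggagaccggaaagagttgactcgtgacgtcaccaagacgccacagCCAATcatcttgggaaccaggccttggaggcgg
Gins3, plus strand, chr8:95633409-95633529: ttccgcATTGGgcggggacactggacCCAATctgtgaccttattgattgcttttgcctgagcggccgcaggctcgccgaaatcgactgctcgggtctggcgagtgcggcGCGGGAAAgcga
Rrm2, plus strand, chr12:24708154-24708253: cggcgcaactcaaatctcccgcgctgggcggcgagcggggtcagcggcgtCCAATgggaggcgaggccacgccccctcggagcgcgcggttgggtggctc
Uhrf1, plus strand, chr17:56303237-56303334: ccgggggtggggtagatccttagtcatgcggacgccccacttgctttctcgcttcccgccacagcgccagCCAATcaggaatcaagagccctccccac
Pcna, minus strand, chr2:132253181-132253280: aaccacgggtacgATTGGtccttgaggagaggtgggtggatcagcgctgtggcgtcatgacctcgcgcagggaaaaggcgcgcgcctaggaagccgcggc
Rpa3, minus strand, chr6:8259142-8259241: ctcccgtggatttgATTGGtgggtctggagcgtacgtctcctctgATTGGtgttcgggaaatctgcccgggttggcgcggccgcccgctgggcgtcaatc

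An E2F-type match was present in at least 1 window of 13 of the 32 genes (40.6%), which were Cdc6, Cdt1, Mcm3, Mcm5, Mcm6, Mcm7, Gins3, Pola1, Pole2, Pold1, Rfc3, Lig1 and Uhrf1. That of Uhrf1 lay in another of its promoter windows than the bases shown. Of all 32851 RefSeq windows 2.3% held a match, and of 9871 tested genes with a window 4.5% did. A CCAAT box was present in 21 of the 32 genes (65.6%), against 42.8% of tested genes, while TTTGAA, the CHR element of late cell-cycle promoters, was present in 15.6% against 14.2%. The median GC content of the windows was 58.0% for the replication genes and 60.7% for tested genes. The E2F-type match was found in 9 of the 20 genes called higher both as deposited and with median-of-ratios scaling (45.0%), and in 4 of the 12 others (33.3%), and these shares were not tested. The others include Cdc6, with a match, and Brca1, which the filter left out and which were called higher under both scalings without it. In Mcm6 and Mcm5 matches of opposite strands overlap in a 12-base word, TTTGGCGCGAAA in Mcm6 and its reverse complement TTTCGCGCCAAA in Mcm5, which begin 110 and 153 bases before the start. This word was picked out after the sequences were seen, and 4 of the 32851 windows held it. A match is a description of the letters and not evidence of binding.

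Among the licensing genes, the helicase and its loaders were higher and the inhibitor geminin was not. Cdt1, which loads MCM rings together with Cdc6, had 5.93, 7.10 and 6.77 FPKM in stone kidneys, against 3.04, 3.04 and 3.25 FPKM in control kidneys. The groups were well separated, at a log2 fold change of 0.88, SE 0.0887 (limma, adjusted p = 2.77e-04). Cdc6 had 0.49, 0.61 and 0.86 FPKM in stone kidneys, against 0.13, 0.17 and 0.03 FPKM in control kidneys. The means differed 5.94-fold without overlap, but all 6 values were under 1 FPKM, and the gene was tested only without the filter (limma, adjusted p = 0.00451). Gmnn, which encodes geminin, the protein that binds and blocks CDT1, had 10.80, 13.26 and 12.72 FPKM in stone kidneys, against 12.11, 13.90 and 9.24 FPKM in control kidneys. These ranges overlap almost fully, with a log2 fold change of 0.07 (limma, adjusted p = 0.704) that was -0.17 with median-of-ratios scaling.

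The 6 genes of the MCM helicase ring all rose, by unequal amounts. Mcm3 had 5.07, 5.50 and 6.25 FPKM in stone kidneys, against 1.09, 1.03 and 1.52 FPKM in control kidneys. Mcm5 had 4.80, 5.31 and 4.54 FPKM in stone kidneys, against 1.28, 1.24 and 1.55 FPKM in control kidneys. These 2 genes, the lowest of the ring in control kidneys, had the largest rises, with log2 fold changes of 1.58 and 1.32 (limma, adjusted p = 1.01e-04 and 9.81e-05). Mcm4 averaged 6.96 ± 1.07 FPKM in stone kidneys and 2.54 ± 0.367 FPKM in control kidneys (SD, n = 3 each), a log2 fold change of 1.17 (limma, adjusted p = 4.28e-04). Mcm6, at 14.35, 17.51 and 15.65 FPKM in stone kidneys, against 9.88, 9.07 and 9.32 FPKM in control kidneys, stayed the most abundant subunit transcript. Its log2 fold change was 0.69 (limma, adjusted p = 6.42e-04). Mcm2, at 7.87, 9.97 and 8.54 FPKM in stone kidneys, against 4.48, 5.64 and 5.02 FPKM in control kidneys, also had a log2 fold change of 0.69 (limma, adjusted p = 0.00185). Mcm7 had the smallest of the 6, at 0.52 (limma, adjusted p = 0.00191), with means of 13.1 ± 1.32 FPKM in stone kidneys and 8.82 ± 0.176 FPKM in control kidneys (SD, n = 3 each).

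Because the subunits rose unequally, their levels were more even in stone kidneys. The highest subunit exceeded the lowest by 2.99, 3.30 and 3.45 times in stone samples 1 to 3, and by 9.06, 8.81 and 6.13 times in control samples 1 to 3. The 6 subunits summed to 49.6, 60.0 and 56.0 FPKM in stone samples and to 28.2, 28.1 and 28.9 FPKM in control samples. Mcm6 and Mcm7 made up 51.6% to 53.1% of that sum in stone kidneys and 62.6% to 65.8% in control kidneys. Ratios between genes of 1 sample do not change when the sample is multiplied by 1 factor, though quantile normalization can change them. They were computed after the subunit values had been seen and are given without a test.

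**Figure D2:**
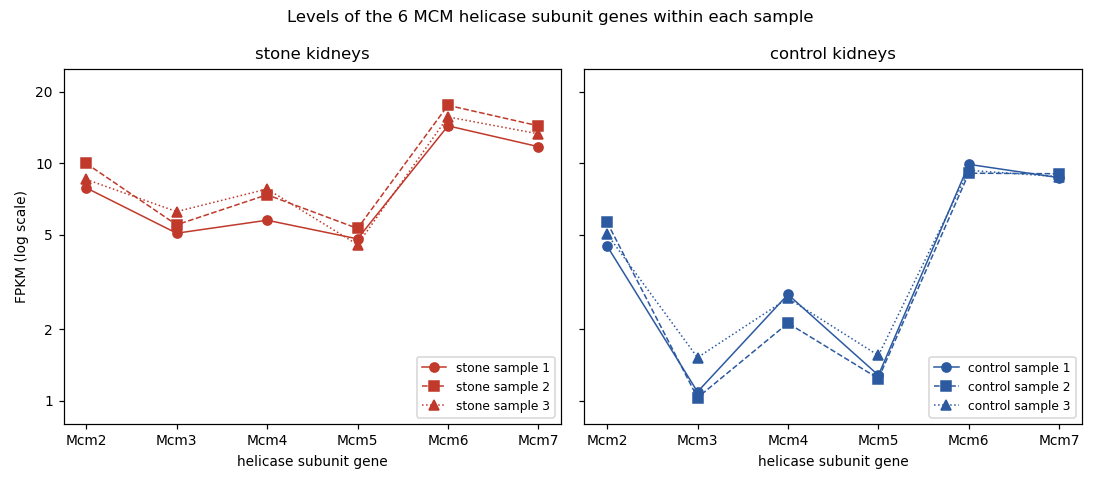
FPKM on a log axis of the 6 MCM helicase subunit genes in each sample, with stone samples in the left panel and control samples in the right panel, points joined within a sample. The lines are flatter in the stone panel, where the highest subunit is 2.99 to 3.45 times the lowest, against 6.13 to 9.06 times in the control panel.

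Of the genes that turn the loaded ring into an active helicase, 3 of the 5 tested rose, against 43.5% of tested genes called higher. With no filter 3 of the 6 were called higher, against 33.3% of all genes. With median-of-ratios scaling as well, 2 of the 6 were higher and 1 lower, against 17.6% and 18.3% of all genes. Gins2, a GINS subunit, had 6.36, 12.51 and 8.38 FPKM in stone kidneys, against 2.48, 1.15 and 2.20 FPKM in control kidneys. It had a log2 fold change of 1.76 (SE 0.258, limma, adjusted p = 0.00132), and the stone values were widely spread. In the GENCODE M21 annotation 67.3% of the exonic bases of Gins2 are shared with Gse1 on the opposite strand. Gse1 had 7.91, 9.38 and 9.60 FPKM in stone kidneys, against 6.54, 5.74 and 7.56 FPKM in control kidneys, a log2 fold change of 0.39, and no source used here says whether fragments were counted by strand. Gins1 averaged 3.28 ± 0.211 FPKM in stone kidneys and 1.69 ± 0.211 FPKM in control kidneys (SD, n = 3 each), and Cdc45, the helicase cofactor, had 2.07, 2.74 and 2.43 FPKM in stone kidneys, against 0.71, 1.39 and 1.47 FPKM in control kidneys. Their log2 fold changes were 0.67 and 0.65 (limma, adjusted p = 0.00164 and 0.0138), and both calls were lost with quantile normalization, at 0.28 and 0.25. That of Cdc45 was also lost with median-of-ratios scaling and no filter (adjusted p = 0.0598). Cdc45 shares 6.0% of its exonic bases with Ufd1 on the opposite strand. Ufd1 had 28.12 to 29.90 FPKM in stone and 26.50 to 29.50 FPKM in control kidneys.

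The remaining GINS genes and Mcm10 did not follow. Gins4 had 14.68, 11.72 and 13.92 FPKM in stone kidneys, against 12.04, 12.43 and 10.95 FPKM in control kidneys. This was the most abundant GINS transcript and its groups overlapped, with a log2 fold change of 0.17 (limma, adjusted p = 0.167) that was -0.07 with median-of-ratios scaling. Gins3 was at 0.74 to 0.95 FPKM in stone kidneys and 0.24 to 0.76 FPKM in control kidneys and was not called without the filter (limma, adjusted p = 0.208). Mcm10, a helicase activation factor, had 0.99, 1.76 and 1.63 FPKM in stone kidneys, against 1.97, 2.14 and 1.75 FPKM in control kidneys. It had the lowest fold change of the 36 tested genes, at -0.28 (limma, adjusted p = 0.153), and was called lower with median-of-ratios scaling, at -0.44 (limma, adjusted p = 0.0368).

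In polymerases epsilon and delta the catalytic subunits had larger fold changes than their partners. Pole, the catalytic subunit of polymerase epsilon, which copies the leading strand, had 1.30, 1.62 and 1.24 FPKM in stone kidneys, against 0.27, 0.25 and 0.36 FPKM in control kidneys. That is a 4.73-fold difference of means without overlap (limma without the filter, adjusted p = 6.31e-04). Its accessory subunit Pole2 had 1.23, 1.79 and 1.78 FPKM in stone kidneys, against 1.54, 1.83 and 1.53 FPKM in control kidneys. Those ranges overlap, with a log2 fold change of -0.02 (limma, adjusted p = 0.888), which was 0.15 with equal FPKM sums and -0.42 after quantile normalization, where it was called lower (adjusted p = 0.0243). Pold1, the catalytic subunit of the lagging-strand polymerase delta, had 4.05, 3.94 and 4.94 FPKM in stone kidneys, against 1.32, 1.60 and 1.86 FPKM in control kidneys, a log2 fold change of 1.03 (limma, adjusted p = 5.42e-04). Its partner Pold2 averaged 10.9 ± 0.701 FPKM in stone kidneys and 7.04 ± 1.04 FPKM in control kidneys (SD, n = 3 each), a log2 fold change of 0.57 whose call was lost with median-of-ratios scaling (limma, adjusted p = 0.0542).

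Polymerase alpha and primase, which lay down the first primer of each fragment, had the same order of fold changes. Pola1, the catalytic subunit, had 2.03, 2.14 and 1.86 FPKM in stone kidneys, against 0.90, 0.60 and 0.91 FPKM in control kidneys. The regulatory subunit Pola2 averaged 4.09 ± 0.565 FPKM in stone kidneys and 2.47 ± 0.144 FPKM in control kidneys (SD, n = 3 each). Pola1 and Pola2 had log2 fold changes of 0.74 and 0.55 (limma without the filter, adjusted p = 0.00209 and 0.00975). Prim1, the catalytic primase subunit, had 6.88, 7.13 and 8.21 FPKM in stone kidneys, against 4.52, 4.04 and 4.31 FPKM in control kidneys, a log2 fold change of 0.67 (limma, adjusted p = 8.89e-04). Prim2, the large primase subunit, averaged 4.44 ± 0.448 FPKM in stone kidneys and 3.61 ± 0.480 FPKM in control kidneys (SD, n = 3 each), overlapped between groups and was not called (log2 fold change 0.24, limma, adjusted p = 0.105, and -0.12 after quantile normalization). The Pola1 and Pola2 calls were lost with quantile normalization (limma, adjusted p = 0.0505 and 0.170). These differences between partner subunits were not tested themselves.

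Pcna, the sliding clamp and the most abundant of the 40 transcripts, was clearly higher. It had 59.65, 69.84 and 66.06 FPKM in stone kidneys, against 33.58, 32.23 and 37.73 FPKM in control kidneys. The lowest stone value exceeded the highest control value by a wide margin, at a log2 fold change of 0.90, SE 0.0853 (limma, adjusted p = 2.27e-04, and 0.65 with adjusted p = 5.20e-04 after median-of-ratios scaling). GENCODE lists the processed pseudogenes Pcna-ps1 and Pcna-ps2, so its fragments may be shared with them, and its level is uncertain to that extent.

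The clamp loader genes, Rfc1 to Rfc5, had smaller fold changes than Pcna, though the differences between genes were not tested. Rfc4 rose, with 6.70, 7.14 and 6.25 FPKM in stone kidneys, against 3.95, 3.83 and 4.35 FPKM in control kidneys, a log2 fold change of 0.61 that stayed called under all 17 alternatives (limma, adjusted p = 0.00103). Rfc1 had 8.36, 8.38 and 8.89 FPKM in stone kidneys, against 7.28, 6.55 and 7.63 FPKM in control kidneys, and Rfc3 and Rfc5 were at 7.61 to 9.60 and 10.03 to 12.76 FPKM in stone kidneys, against 5.86 to 7.34 and 7.50 to 9.06 FPKM in control kidneys. These 3 genes were called higher as deposited, at 0.23, 0.34 and 0.37, and were not called with median-of-ratios scaling, at 0.00, 0.11 and 0.14, Rfc1 being -0.07 after quantile normalization (limma, median-of-ratios scaling, adjusted p = 0.987, 0.423 and 0.307). Each of these 3 calls was also lost without control sample 1, control sample 2 or stone sample 2, and those of Rfc1 and Rfc3 without stone sample 3, and that of Rfc1 without stone sample 1. Rfc2, the most abundant loader subunit, had 23.98, 26.95 and 27.99 FPKM in stone kidneys, against 29.58, 26.54 and 25.21 FPKM in control kidneys. Its groups overlapped as deposited, at -0.04 (limma, adjusted p = 0.697), and it was called lower with median-of-ratios scaling, at -0.29 (adjusted p = 0.0220), and higher with equal FPKM sums, at 0.23 (adjusted p = 0.0366). In GENCODE M21 Rfc4 shares 12.7% of its exonic bases with Eif4a2, and Rfc5 10.7% with Wsb2, on the opposite strand. Eif4a2 had 120.56 to 132.77 FPKM in stone and 139.76 to 149.75 FPKM in control kidneys. Wsb2 had 70.37 to 78.97 FPKM in stone and 69.78 to 75.62 FPKM in control kidneys. Fragments from the shared bases cannot be told apart if strand was not used.

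Both genes that finish Okazaki fragments rose. Lig1, the DNA ligase that seals the nicks, had 5.01, 5.28 and 5.47 FPKM in stone kidneys, against 1.37, 1.56 and 1.60 FPKM in control kidneys. The samples of each group were close together, at a log2 fold change of 1.32, SE 0.0892 (limma, adjusted p = 6.05e-05). Fen1, the flap endonuclease that trims the fragments, had 5.12, 6.14 and 5.82 FPKM in stone kidneys, against 2.97, 2.28 and 3.21 FPKM in control kidneys, a log2 fold change of 0.81 (limma, adjusted p = 0.00134). The antisense gene Gm10143 covers 78.8% of the exonic bases of Fen1 in GENCODE M21, so fragments of the 2 cannot be told apart if strand was not used.

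Of replication protein A, the trimer that coats single-stranded DNA, 1 of the 3 genes was called higher, with or without the filter. Of tested genes 43.5% and of all genes without the filter 33.3% were called higher, so this count held no excess. Rpa2 had 5.02, 6.09 and 6.08 FPKM in stone kidneys, against 4.05, 3.86 and 3.64 FPKM in control kidneys. It was called higher at 0.47 (limma, adjusted p = 0.00514), and at 0.26 with median-of-ratios scaling (adjusted p = 0.0400), but not after quantile normalization (adjusted p = 0.246). Rpa1, the large subunit, had 18.57, 20.79 and 20.93 FPKM in stone kidneys, against 16.81, 18.28 and 19.03 FPKM in control kidneys, and Rpa3, the small subunit, was at 12.46 to 15.89 FPKM in stone and 12.43 to 13.16 FPKM in control kidneys. Neither was called, with log2 fold changes of 0.15 and 0.12 as deposited and of -0.10 and -0.12 with median-of-ratios scaling, though both were called higher with equal FPKM sums and with array weights.

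Deoxynucleotide synthesis genes were higher, led by the S-phase subunit of ribonucleotide reductase. Rrm2 had 9.11, 14.36 and 11.66 FPKM in stone kidneys, against 2.36, 2.25 and 2.92 FPKM in control kidneys. The lowest stone value was far above the highest control value, at a log2 fold change of 1.84, SE 0.159 (limma, adjusted p = 1.53e-04). Rrm1, the large subunit, averaged 7.39 ± 0.280 FPKM in stone kidneys and 3.28 ± 0.289 FPKM in control kidneys (SD, n = 3 each), a log2 fold change of 0.97 (limma, adjusted p = 1.47e-04). Tk1, the cytosolic thymidine kinase, had 10.31, 12.89 and 10.40 FPKM in stone kidneys, against 6.25, 5.76 and 6.21 FPKM in control kidneys, a log2 fold change of 0.78 (limma, adjusted p = 6.84e-04). Tyms, thymidylate synthase, had 5.29, 4.70 and 4.49 FPKM in stone kidneys, against 3.54, 4.29 and 3.16 FPKM in control kidneys. This small difference was called as deposited (log2 fold change 0.33, limma, adjusted p = 0.0416) and not with median-of-ratios scaling (0.12, adjusted p = 0.470) or quantile normalization (-0.03), and leaving out any 1 sample other than control sample 2 ended the call. GENCODE lists the pseudogene Tyms-ps, with which fragments may be shared.

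Uhrf1 had the largest change of all 40 genes. It encodes the protein that brings the maintenance DNA methyltransferase to newly copied DNA, and its RefSeq span in GRCm38.p6 is chr17:56303337-56323486. It had 5.02, 6.30 and 5.44 FPKM in stone kidneys, against 0.58, 0.42 and 0.70 FPKM in control kidneys. The means differed 9.86-fold, at a log2 fold change of 2.07, SE 0.116 (limma without the filter, adjusted p = 1.55e-04). Uhrf1 passed the filter only through the stone samples. Brca1, which acts in homologous recombination and protects stalled forks, had 1.04, 1.46 and 0.88 FPKM in stone kidneys, against 0.16, 0.27 and 0.17 FPKM in control kidneys. These low levels do not overlap, and the gene was called higher without the filter (limma, adjusted p = 0.00204).

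**Figure D3:**
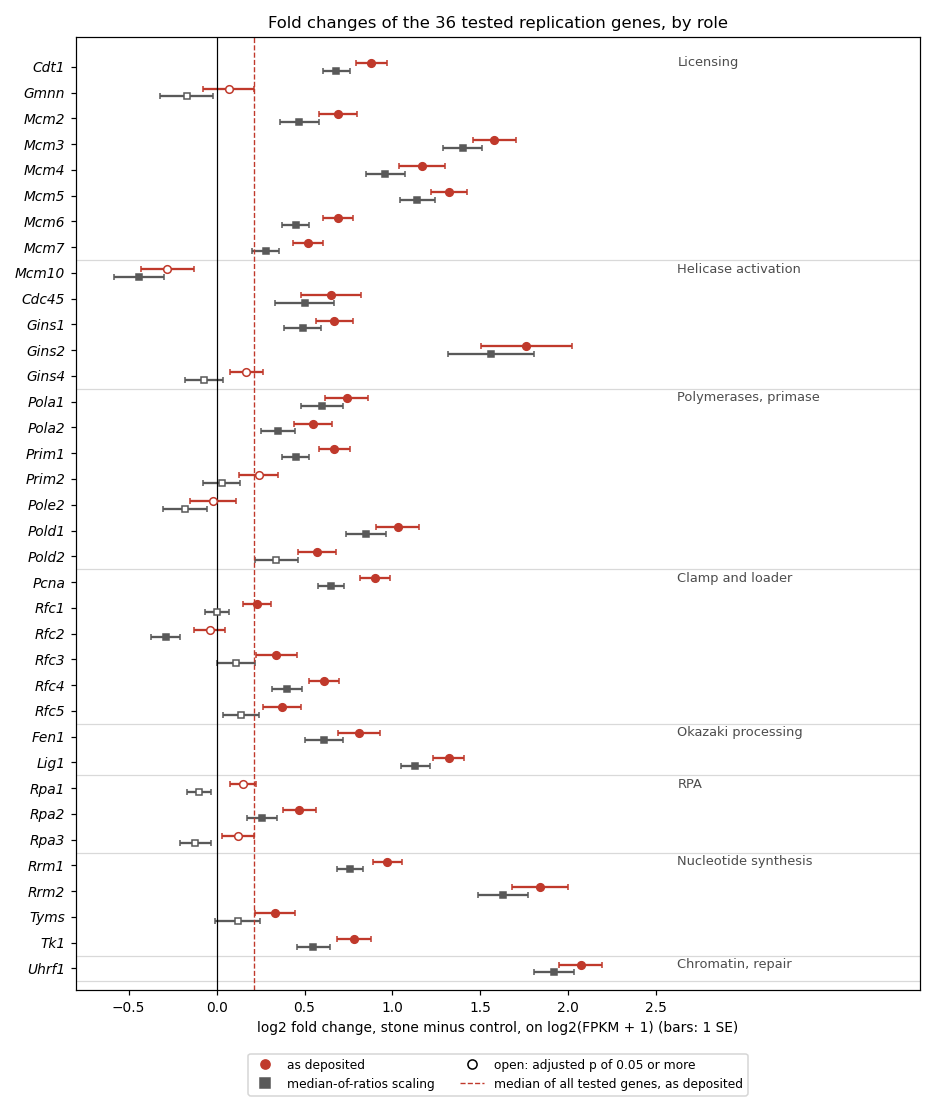
Log2 fold changes, stone minus control, of the 36 tested replication genes grouped by role, with bars of 1 SE, red circles as deposited and grey squares with median-of-ratios scaling, filled where the adjusted p was below 0.05. Uhrf1, Rrm2, Gins2 and Mcm3 lie farthest to the right, and Mcm10, Rfc2, Pole2, Gmnn, Rpa1, Rpa3 and Gins4 lie left of the dashed line that marks the median of all tested genes (0.21).

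The size of the difference went with the level in control kidneys. The 15 genes with a control mean below 2 FPKM had a median ratio of stone to control means of 3.48, with a range of 0.747 to 9.86. In the 12 genes between 2 and 6 FPKM the median ratio was 1.73 (range 1.23 to 4.67), and in the 13 genes at 6 FPKM or more it was 1.30 (range 0.970 to 1.89). With median-of-ratios scaling these medians were 2.91, 1.45 and 1.09. The control mean enters both measures, so this is a description and was not tested. Rfc2, Rpa1, Gmnn, Gins4 and Rpa3 belong to the last of these classes, as does Pcna, which had its highest ratio.

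Stone samples differed among themselves in a shared way. Stone sample 2 had the highest value of the 3 in 25 of the 40 genes, stone sample 3 in 11 and stone sample 1 in 4, whereas 33.0%, 40.9% and 26.1% of all tested genes were highest in samples 2, 3 and 1. With median-of-ratios scaling the counts in samples 2, 3 and 1 were 27, 8 and 5, against 28.7%, 27.4% and 43.9% of tested genes. Stone sample 1 was the lowest of the 3 in 29 genes as deposited. The share of all tested genes lowest in that sample is not given, so this count has no background beside it. The 20 mitosis genes, given below, summed to 61.3, 84.4 and 66.4 FPKM in stone samples 1 to 3, and 9 macrophage markers summed to 164, 300.4 and 223 FPKM, with stone sample 2 highest in both. Stone sample 2 was also highest for fibroblast markers, at 85.9, 149 and 139 FPKM. The same held for loop and distal tubule markers (1394, 2208 and 1676 FPKM) and injured tubule markers (8691, 9066 and 8833 FPKM). Neutrophil markers, at 28.1, 19.9 and 19.1 FPKM, were highest in stone sample 1, and endothelial markers, at 94.3, 116 and 151 FPKM, in stone sample 3. Proximal tubule, podocyte, and T and NK cell markers were highest in stone sample 1 too. Collecting duct, B and plasma cell, and erythroid markers were highest in stone sample 3. In control kidneys the highest value fell to sample 1 in 8 genes, to sample 2 in 11 and to sample 3 in 21. Shares over all genes are not given for these control counts either.

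Markers of several cell types other than normal tubule moved with the replication genes. Of 9 macrophage markers 8 were called higher, with sums of 164 to 300.4 FPKM in stone and 62.6 to 67.9 FPKM in control kidneys. All 6 fibroblast markers were called higher (85.9 to 149 FPKM in stone, 24.8 to 35.8 FPKM in control kidneys), as were all 7 injured tubule markers (8691 to 9066 FPKM in stone, 599 to 711 FPKM in control kidneys) and 4 of 6 endothelial markers (94.3 to 151 FPKM in stone, 59.9 to 99.5 FPKM in control kidneys). Of tested genes 43.5% were called higher. These 4 counts were the same without the filter, against 33.3% of all genes. With median-of-ratios scaling and no filter, 7 of 9 macrophage, 6 of 6 fibroblast and 7 of 7 injured tubule markers were higher. Only 1 of 6 endothelial markers was, against 17.6% of all genes. With that scaling and the filter, 3 of the 6 endothelial markers were called higher, against 22.5% of tested genes. Neutrophil markers summed to 19.1 to 28.1 FPKM in stone and 1.93 to 5.08 FPKM in control kidneys, and 4 of the 6 were called higher without the filter, against 33.3% of all genes. Lymphocyte markers stayed low, with 1.47 to 1.78 FPKM in stone and 2.24 to 3.14 FPKM in control kidneys over 7 T and NK cell genes, and 2.65 to 3.99 FPKM in stone and 3.25 to 6.00 FPKM in control kidneys over 6 B and plasma cell genes. Erythroid genes summed to 598 to 759 FPKM in stone and 2169 to 3169.7 FPKM in control kidneys, and 5 of the 6 were called lower without the filter. In these lists 0 markers were at 0 in all 6 samples. The part of these cell types in the replication genes was not tested.

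The wider replication pathway was looked at through 56 further genes. With no filter 35 of the 56 were called higher and 3 lower, while 33.3% of all genes were called higher. Of the 43 that passed the filter, 25 were called higher and 3 lower as deposited, against 43.5% and 13.9% of tested genes. Among those called higher, Timeless, Mcm8, Top2a, Chaf1b, Asf1b, Hells and Pclaf passed the filter only through the stone samples. With median-of-ratios scaling 13 of the 43 were higher and 7 lower, against 22.5% and 26.2% of tested genes. The median log2 fold change of the 43 was 0.31 as deposited and 0.07 with that scaling. With that scaling and no filter 25 of the 56 were higher and 6 lower, against 17.6% and 18.3% of all genes. Of the 6 genes of the origin recognition complex, which marks origins, 2 were called higher and 0 lower without the filter. This share was no larger than the 33.3% of all genes called higher. With median-of-ratios scaling as well, 1 of the 6 was higher and 1 lower, against 17.6% and 18.3% of all genes. Orc1, the gene called higher in both, was at 0.23 to 0.36 FPKM in stone kidneys and 0.06 to 0.13 FPKM in control kidneys (log2 fold change 0.27, limma without the filter, adjusted p = 0.00873). Of the 5 that passed the filter, Orc5 had the smallest p, at a log2 fold change of 0.31 (limma, adjusted p = 0.0205, and 0.564 with median-of-ratios scaling). Among 14 genes of origin firing and fork protection, 12 were called higher without the filter, against 33.3% of all genes. Topbp1, a scaffold of origin firing and checkpoint signalling, had a log2 fold change of 0.78 (limma, adjusted p = 6.89e-04). Its values were 6.18, 6.69 and 6.55 FPKM in stone kidneys, against 3.74, 2.89 and 3.50 FPKM in control kidneys.

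Of the 11 chromatin assembly and maintenance methylation genes, 10 were called higher and 0 lower without the filter, against 33.3% of all genes called higher. Pclaf, the PCNA-associated factor, had 2.77, 3.68 and 3.47 FPKM in stone kidneys, against 0.50, 0.24 and 0.49 FPKM in control kidneys (log2 fold change 1.61, limma without the filter, adjusted p = 3.65e-04). Dnmt1, the methyltransferase that UHRF1 recruits which is named here because of its values, had 6.47, 7.78 and 7.80 FPKM in stone kidneys, against 4.18, 4.01 and 4.35 FPKM in control kidneys (log2 fold change 0.69, limma, adjusted p = 8.79e-04). Of 12 genes of primer removal, clamp unloading and topoisomerases, 7 were called higher without the filter, against 33.3% of all genes. The topoisomerase gene Top2a had 4.09, 4.97 and 4.03 FPKM in stone kidneys, against 0.29, 0.37 and 0.73 FPKM in control kidneys (log2 fold change 1.88, limma without the filter, adjusted p = 3.39e-04). Top2a and Pclaf passed the filter only through the stone samples. The smaller polymerase subunits went both ways. Pold3 was called higher as deposited (0.27, limma, adjusted p = 0.0187) but not with median-of-ratios scaling (0.03, adjusted p = 0.691), and Pole4, an accessory subunit of polymerase epsilon, had 10.59, 14.28 and 13.56 FPKM in stone kidneys, against 21.65, 24.15 and 19.29 FPKM in control kidneys, a log2 fold change of -0.72 (limma, adjusted p = 0.00274, and -0.96 with median-of-ratios scaling).

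Nucleotide supply genes outside the 40 were also mixed, with 3 of 9 called higher and 2 lower. Of all tested genes 43.5% were called higher and 13.9% lower, so the list held no excess of higher calls. Shmt1, a folate enzyme that feeds thymidylate synthesis, had 32.82, 32.13 and 29.29 FPKM in stone kidneys, against 18.41, 21.44 and 20.27 FPKM in control kidneys, a log2 fold change of 0.62 (limma, adjusted p = 6.76e-04). Rrm2b, the p53-inducible counterpart of Rrm2 that supplies nucleotides outside S phase, named because of its values, had 8.82, 9.72 and 9.66 FPKM in stone kidneys, against 13.77, 12.67 and 13.73 FPKM in control kidneys, and fell by 0.47 (limma, adjusted p = 0.00149). It was called lower under all 17 alternatives.

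**Figure D4:**
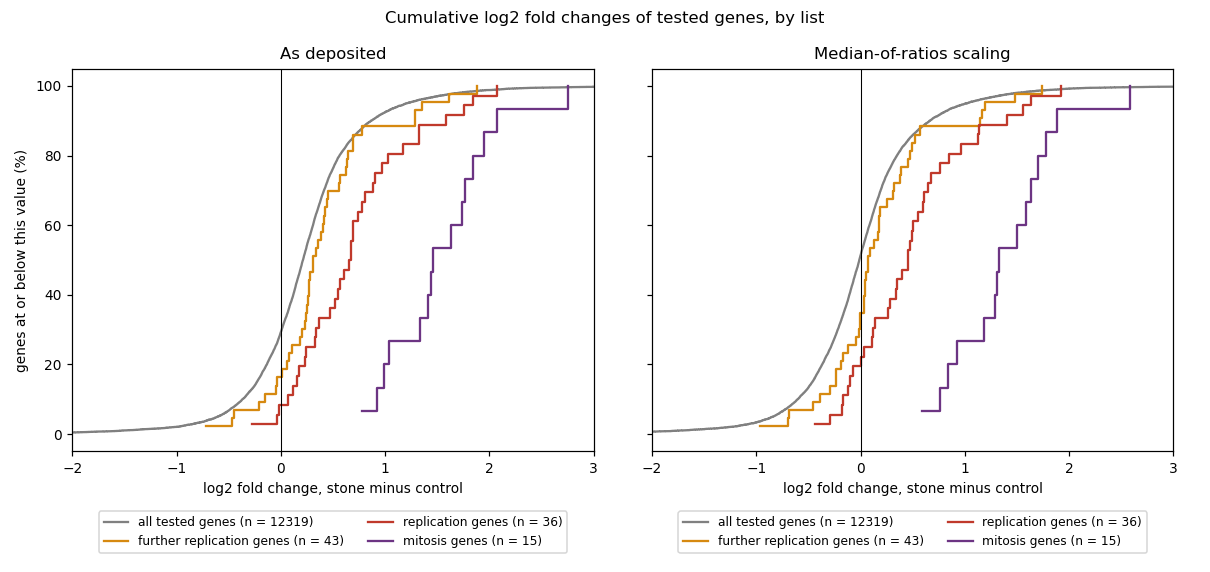
Cumulative percentage of tested genes at or below each log2 fold change, stone minus control, as deposited on the left and with median-of-ratios scaling on the right, for 12319 tested genes, 43 further replication genes, 36 of the 40 replication genes and 15 mitosis genes. The curve of the replication genes lies to the right of that of all tested genes, with a median of 0.66 against 0.21 as deposited and 0.45 against -0.01 after scaling, and the mitosis curve has medians of 1.46 and 1.33, with 12 of its 15 genes at a control mean below 1 FPKM, which passed the filter only through the stone samples.

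Of 19 genes that drive the G1/S transition 16 were called higher and 1 lower without the filter, against 33.3% of all genes called higher. E2f1, the activator of replication gene transcription, had 3.13, 4.00 and 4.33 FPKM in stone kidneys, against 0.89, 1.13 and 0.77 FPKM in control kidneys. Its log2 fold change was 1.32 (limma without the filter, adjusted p = 8.30e-04), and its control mean of 0.930 FPKM was under the filter limit. Ccnd1, the cyclin D1 gene, had 164.21, 145.06 and 134.61 FPKM in stone kidneys, against 47.01, 37.82 and 59.74 FPKM in control kidneys, a log2 fold change of 1.62 (limma, adjusted p = 2.65e-04). Cdk4, its kinase partner, had 88.20, 91.44 and 96.21 FPKM in stone kidneys, against 51.03, 53.59 and 50.41 FPKM in control kidneys, a log2 fold change of 0.82 (limma, adjusted p = 7.80e-05). Ccne1, the cyclin E1 gene, was at 0.78 to 1.36 FPKM in stone and 0.26 to 0.38 FPKM in control kidneys (limma without the filter, adjusted p = 0.00553). Cdkn1a, which encodes the CDK and PCNA inhibitor p21, had 28.81, 37.84 and 37.58 FPKM in stone kidneys, against 3.17, 3.20 and 3.98 FPKM in control kidneys. Its log2 fold change of 3.00 (limma, adjusted p = 1.42e-05) was larger than that of any of the 36 tested replication genes. Of 17 repressors and inhibitors tested without the filter 8 were called higher and 0 lower, while Cdkn2a was listed at 0 in all 6 samples, and with median-of-ratios scaling 2 of the 15 that passed the filter were higher and 2 lower, against 22.5% and 26.2% of tested genes. As deposited 9 of those 15 were called higher and 0 lower, against 43.5% and 13.9% of tested genes. With median-of-ratios scaling and no filter 4 of 17 were higher and 2 lower, against 17.6% and 18.3% of all genes. Whether repressors were called higher more often than other genes thus depended on the setting.

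Genes of mitosis moved in the same direction as the replication genes. All 20 were called higher without the filter, against 33.3% of all genes. Mki67, the proliferation marker Ki-67, had 3.68, 4.23 and 3.84 FPKM in stone kidneys, against 0.37, 0.39 and 0.58 FPKM in control kidneys (log2 fold change 1.77, limma without the filter, adjusted p = 1.36e-04). It passed the filter only through the stone samples. Of 15 genes of the S-phase checkpoint and recombination 8 were called higher and 0 lower without the filter, against 33.3% of all genes called higher. Of the 6 that passed the filter 2 were called higher, against 43.5% of tested genes. Their median log2 fold change was 0.19, against 0.21 over all tested genes. Whether checkpoint genes were called higher more often than other genes thus depended on the filter.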

How the data were processed

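RNA of 6 mouse kidney samples was sequenced from libraries made with a dUTP strand-marking protocol, per the labels' protocols. The authors deposited FPKM values per gene, fragments scaled by gene length and sample total, as 1 table of 17933 genes, per the file headers. The submitters' processing notes name the aligner HISAT2 2.0.4 and the build GRCm38.p6. The quantifier, the annotation and the use of strand are not stated in any source at hand. FPKM give no counts, so the depth of each sample is unknown. All 6 samples were assigned by label, with 0 other columns of sample values.

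Values were tested as log2(FPKM + 1) with limma 3.58.1 in R 4.3.3 (linear model, moderated with a trend), stone minus control, over the 12319 genes averaging 1 FPKM or more, with Benjamini-Hochberg adjustment over all of them and a threshold of 0.05. A fold change on this scale understates that of low genes. Alternatives were median-of-ratios scaling, quantile normalization, equal FPKM sums, pseudocounts of 0.1 and 0.5, no filter, a minimum mean of 0.3 FPKM, array weights, a replicate block and leaving out each sample. The fit was checked on simulated data. The 40 genes and the other lists were chosen with earlier results of these data known. All 40 were described, and of each further list the called gene with the smallest p in each direction or, with none called, the smallest p, with E2f1, Ccne1, Ccnd1, Cdkn1a, Mki67 and Top2a whatever their values. Some genes that this rule names are not reported here. Promoter windows and gene positions came from RefSeq (GRCm38.p6), and exon overlaps from GENCODE M21.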

Additional observations from a re-analysis of the deposited data

How the results depend on the processing

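The scaling of the samples mattered most, and no spike-in or count was there to choose between scalings. Of the 36 tested replication genes, 28 were called higher and 0 lower. Quantile normalization called 18 higher and 2 lower, and median-of-ratios scaling also gave 2 lower, as it did with no filter. The median log2 fold change of 0.66 was 0.45 with median-of-ratios scaling, 0.46 with that and no filter, 0.28 with quantile normalization, 0.85 with equal FPKM sums and 0.76 with a pseudocount of 0.1. Over all genes, 5356 were called higher and 1711 lower. The counts were 2776 and 3222 with median-of-ratios scaling, 3101 and 3212 with that and no filter, 2744 and 3138 with quantile normalization, and 8440 and 797 with equal FPKM sums. The median of all tested genes moved by -0.24 with quantile normalization and by 0.24 with equal FPKM sums.

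Further replication genes, 25 called higher and 3 lower, numbered 13 and 7 with median-of-ratios scaling and 10 and 6 with quantile normalization, with 5 lower under array weights and 6 lower under median-of-ratios scaling with no filter. Regulators of G1/S, 22 higher and 0 lower, numbered 11 and 3 with median-of-ratios scaling, 11 and 3 with quantile normalization, and 14 and 3 with median-of-ratios scaling and no filter. They had 1 lower with no filter, a minimum mean of 0.3 FPKM, array weights or equal sums without Kap. Checkpoint and repair genes, 2 higher and 0 lower, had 1 higher and 1 lower with quantile normalization, 5 higher with equal FPKM sums, 8 with no filter, 6 with a minimum mean of 0.3 FPKM and 7 with no filter and median-of-ratios scaling. The mitosis genes were called higher in every setting.

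Changes of sign were confined to 9 replication genes with small values. Gmnn was -0.17 with median-of-ratios scaling, with or without the filter, -0.18 with quantile normalization and -0.08 to 0.19 when single samples were left out, being below 0 without control sample 3. Gins4 was -0.07, -0.08 and -0.07, Rpa1 was -0.10, -0.06 and -0.10, and Rpa3 was -0.12, -0.13 and -0.12 with median-of-ratios scaling, quantile normalization, and median-of-ratios scaling with no filter. With quantile normalization Prim2 was -0.12, Rfc1 -0.07 and Tyms -0.03. Pole2 was 0.15 with equal FPKM sums, 0.08 with array weights, and 0.03 and 0.08 without control sample 2 and without stone sample 1. Rfc2 was 0.23 with equal FPKM sums and -0.09 to 0.02 when single samples were left out, being above 0 without control sample 1 or stone sample 1. The cause of these changes was not tested.

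Leaving out each sample in turn gave 24 to 27 replication genes called higher and 0 lower, and 4265 to 5242 higher and 1360 to 1697 lower over all genes. The range of the median log2 fold change was 0.60 to 0.68. Same-numbered samples did not visibly deviate together (r = 0.0075, -0.22 and -0.0397). With 3 samples a group this cannot exclude that the numbers pair them. With the replicate number as a block 24 replication genes were called higher, without Rfc1, Rfc3, Rfc5 and Tyms, and 4861 and 1517 genes were called higher and lower overall. Equal FPKM sums without Kap, which gave 24 higher and 0 lower, and no filter with median-of-ratios scaling were chosen after seeing the data.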

Other observations

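The balance between partner transcripts differed between the groups in several complexes. The ratio of 2 transcripts within a sample does not change when the sample is multiplied by 1 factor, though quantile normalization can change it. These pairs were picked after the values were seen, so no test is given. The FPKM ratio of Rrm2 to Rrm1, the small and large subunits of ribonucleotide reductase, was 1.29, 1.90 and 1.54 in stone kidneys, against 0.761, 0.721 and 0.809 in control kidneys. The ratio of Cdt1, the helicase loader, to Gmnn, its inhibitor, was 0.549, 0.535 and 0.532 in stone kidneys, against 0.251, 0.219 and 0.352 in control kidneys. In both pairs every stone ratio lay above every control ratio.

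The catalytic to accessory ratio of polymerase epsilon, Pole to Pole2, averaged 0.886 ± 0.181 in stone kidneys and 0.182 ± 0.0497 in control kidneys (SD, n = 3 each). For polymerase delta, Pold1 to Pold2 averaged 0.398 ± 0.0540 in stone kidneys and 0.232 ± 0.0668 in control kidneys. Uhrf1 to Dnmt1, the recruiter and the methyltransferase, averaged 0.761 ± 0.0576 in stone kidneys and 0.135 ± 0.0283 in control kidneys. Groups did not overlap in these 3 ratios. Mcm10 to Cdc45 went the other way, at 0.597 ± 0.104 in stone kidneys and 1.83 ± 0.832 in control kidneys. Among helicase subunits Mcm2 to Mcm6 overlapped between groups, at 0.555 ± 0.0130 in stone kidneys and 0.538 ± 0.0842 in control kidneys, while Mcm3 to Mcm6 averaged 0.356 ± 0.0427 in stone kidneys and 0.129 ± 0.0296 in control kidneys.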
